A study of Mus musculus with 22 samples.

Results

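The 50 mitosis and kinetochore genes described here build, attach, check and separate the chromosomes of a dividing cell. They were picked by symbol from the RNA count table of the developing mouse telencephalon, which lists 55385 genes, and all 50 were among the 16237 genes with enough counts to be tested. They fall into 8 roles: 9 genes of mitotic entry, 8 of the kinetochore and centromere, 5 of the spindle checkpoint, 9 of the chromosomal passenger complex, sister chromatid cohesion and separase, 2 of mitotic exit by ubiquitination, 8 of the spindle and cytokinesis, 7 of chromosome structure and 2 transcription factors. For each gene, the RNA level at both stages and the peaks of every chromatin list within 2000 bp of its span on GRCm38 were read.

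The telencephalon of ICR mouse embryos, an outbred strain for which the labels list no transgene, mutation or treatment, was sampled at embryonic day 13.5 (E13.5) and embryonic day 16.5 (E16.5). RNA-seq and native ChIP-seq of 3 acylation marks, H3K9ac and H3K9cr (acetyl and crotonyl groups on lysine 9 of histone H3) and H3K18la (a lactyl group on lysine 18), were made at both stages, and ATAC-seq, which maps accessible chromatin, at E13.5. Every group held 2 libraries that the series calls biological replicates. How many embryos went into each is not stated in the labels. In a bulk tissue, fewer dividing cells and less RNA per dividing cell cannot be told apart, and this holds for each RNA value below.

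Neural progenitors of the embryonic telencephalon, the radial glia and the intermediate progenitors derived from them, divide repeatedly before their daughters leave the cell cycle as neurons. Most genes of mitosis are transcribed in a wave late in the cycle, so that their RNA is abundant in dividing cells and scarce in neurons. The wave is driven by the MuvB core complex, which works with MYBL2 and FOXM1 in dividing cells and as part of the repressive DREAM complex in resting cells. MuvB contacts a promoter element named the cell cycle genes homology region (CHR), and the factor NF-Y binds CCAAT boxes beside it.

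Depth was even across the RNA libraries, from 17059330 to 18485639 estimated counts, and a gene of the 50 had between 71 and 8087 of them in a library. Of the chromatin lists, H3K18la replicate 1 of E16.5 stood apart: the median peak length was 486 bp there and 634, 648 and 650 bp in the other three libraries of the mark, and its list was the shortest of them, with 62073 peaks against 69157 to 76037. The H3K18la counts below are therefore given with and without it, as far as they use E16.5 replicate 1, while single regions are described with all 4 libraries. The read depth behind the peak lists is unknown here, so a missing peak means only that none was called.

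All 50 genes fell between E13.5 and E16.5. Their summed level was 4718 and 4802 CPM (normalised read counts, each library scaled to a common depth) in the E13.5 libraries and 1718 and 1632 CPM in the E16.5 libraries. The median gene dropped 2.84-fold (log2 change -1.51), and the changes ran from -1.90 for Cdca5 to -0.91 for Zwilch. All 50 passed edgeR's quasi-likelihood test at an adjusted p under 0.05, with a largest adjusted p of 0.000423 for Cenpk, where 29.2% of all tested genes were called lower. None was higher in edgeR, at an adjusted p or at an unadjusted p under 0.05, or in DESeq2, where edgeR called 28.4% of all tested genes higher.

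Of the 50, 49 fell more than 2-fold with an adjusted p under 0.05, a size that 4.24% of tested genes reached, and Zwilch was the exception. In each of the 50, both E16.5 libraries lay below both E13.5 libraries, as they did in 39.8% of tested genes. The median over all tested genes was a log2 change of 0.01. Only 0.67% of tested genes fell more than Cdca5, whereas 5.55% fell more than Zwilch. Of the 50, 9 lay within the lowest 1% of all changes, 31 within the lowest 2% and 49 within the lowest 5%. The spread of the 50 changes was narrower than that of all tested genes, with an SD of 0.199 against 0.924. It was larger than the median standard error of a single gene, 0.0725. The authors' deposited table also lists all 50 as lower with an adjusted p under 0.05, and its log2 changes differed from those given here by 0.0133 at most.

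**Figure D1:**
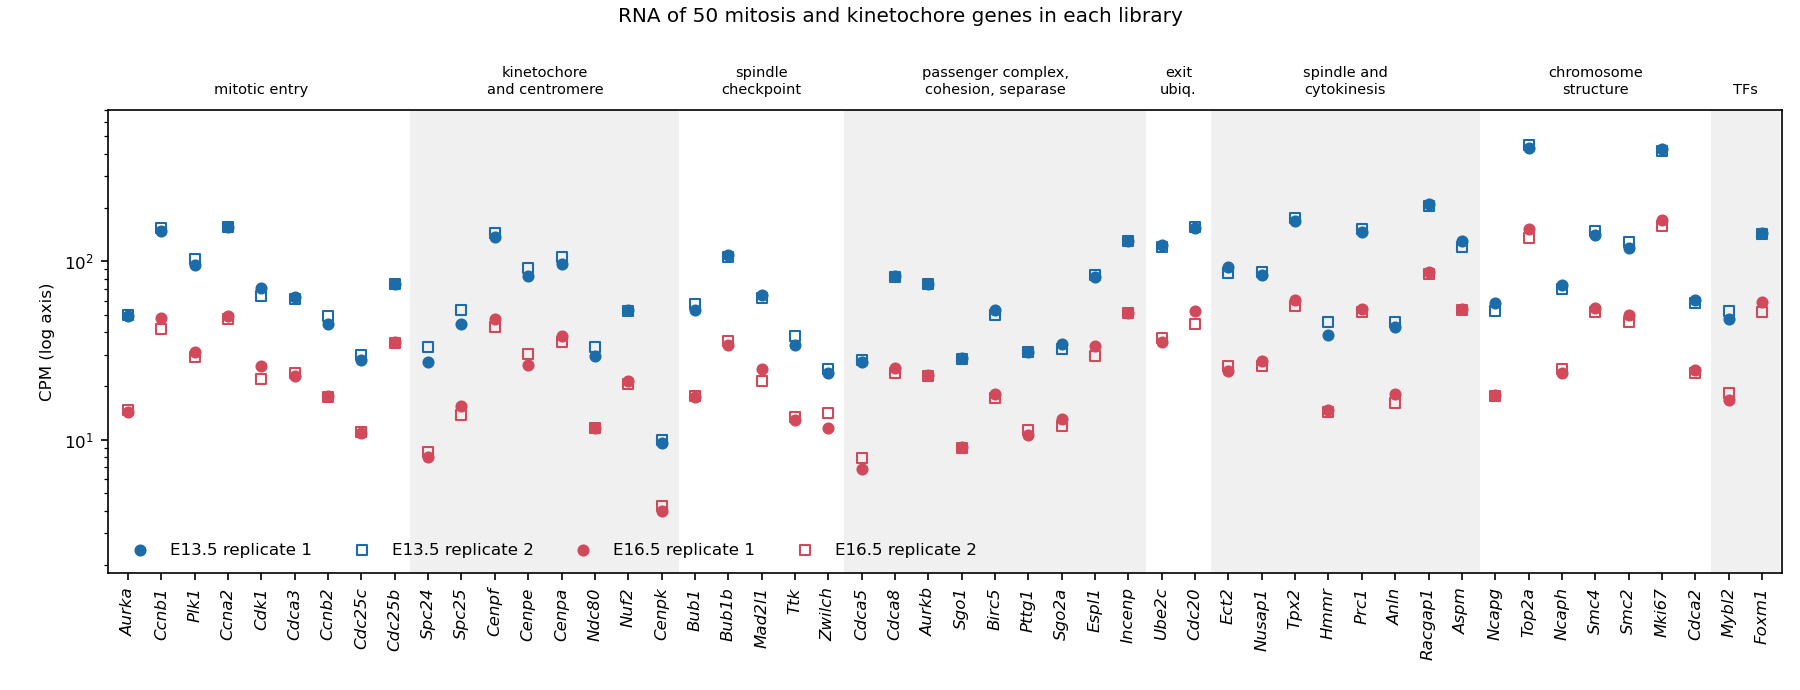
RNA level (CPM, log axis) of each of the 50 genes in the 4 libraries, grouped by role, with filled circles for replicate 1, open squares for replicate 2, blue for E13.5 and red for E16.5; TFs are transcription factors. For every gene both red symbols lie below both blue ones, from Cenpk at 3.97 and 4.25 CPM to Mki67 at 171 and 158 CPM at E16.5.

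The genes share letters in their promoters that the choice of members did not use. Promoter windows from RefSeq (GRCm38.p6), which run from 250 bases before to 50 bases after a start site, matched 40 of the 50 symbols, and the 36 genes with a single window were searched on both strands. A single window need not lie at the outer end of a gene's span. For the minus-strand gene Sgo1, the window (chr17:53689266-53689565) lies inside a span that ends at 53691331. For Pttg1, also on the minus strand, the window (chr11:43425932-43426231) lies inside a span that ends at 43427463. Neither window held the CHR letters. The CHR letters TTTGAA occurred in 24 of the 36 windows (66.7%), against 11.7% of the 9274 tested genes with a single window, 17.9% of all 32851 windows in the table and 20.8% of 360 other genes that fell more than 2-fold. A CCAAT box, by its letters CCAAT, occurred in 26 windows (72.2%), against 39.2%, 37.4% and 48.6%. Both stood together in 21 windows (58.3%), against 5.12%, 6.95% and 14.7%. An E2F site, with the letters TTTNNCGC, occurred in 5 windows (13.9%), against 8.86%, 5.17% and 13.9%. None of the 3 was found in 7 windows (19.4%), against 49.6% of the tested genes. Matches of different motifs were allowed to overlap, and a match is a description of letters, not of a bound site. These shares were compared after results of the same genes were known and carry no test.

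Position was shared as well. In all 24 genes with the CHR letters, a match lay between 100 bases before and 50 bases after the start. Of the 1088 tested genes with the letters in their window, 399 had a match in that stretch. Counted over all windows, this is 66.7% of the 36, against 4.30% of the tested genes. In 23 of the 24 genes, the centre of a match lay within 50 bases of the start on either side. The median centre was 7 bases past the start for 31 CHR matches and 69 bases before it for 61 CCAAT boxes, and 17 of the 36 windows (47.2%) held at least 2 CCAAT boxes, against 15.1% of the tested genes. The median log2 change was -1.51 in the 24 genes with a CHR match and -1.56 in the 12 without, with ranges from -1.90 to -1.21 and from -1.75 to -1.09.

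Promoters of 7 genes are printed to show the layout, 6 with a CHR next to the start and 1 without. Each is printed 5′ to 3′ on the gene's strand from 200 bases before to 30 bases after the start, 230 bases in all, with capitals for the CHR and CCAAT letters on either strand (TTCAAA and ATTGG are their reverse complements). Cdca5 had the deepest fall of the 50 and carries a tandem CHR with no CCAAT box. Cdca8 was among the 3 deepest falls of its role, and Ube2c and Cdc20 are the only 2 genes of theirs. Ccnb2 and Top2a hold rows of CCAAT boxes ahead of a CHR next to the start. Mybl2 has neither motif and fell alongside them.
Cdca5 (chr19:6084897-6085126, plus strand): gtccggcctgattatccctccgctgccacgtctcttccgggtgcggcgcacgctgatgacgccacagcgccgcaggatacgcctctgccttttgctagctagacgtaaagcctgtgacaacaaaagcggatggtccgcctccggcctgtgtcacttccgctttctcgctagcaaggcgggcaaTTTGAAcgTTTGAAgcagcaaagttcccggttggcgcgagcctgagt
Ube2c (chr2:164769729-164769958, plus strand): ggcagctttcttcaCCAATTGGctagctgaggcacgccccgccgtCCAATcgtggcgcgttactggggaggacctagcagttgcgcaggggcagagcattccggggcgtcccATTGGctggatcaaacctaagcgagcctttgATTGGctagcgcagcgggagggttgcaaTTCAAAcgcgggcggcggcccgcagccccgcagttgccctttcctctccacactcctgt
Cdca8 (chr4:124936888-124937117, minus strand): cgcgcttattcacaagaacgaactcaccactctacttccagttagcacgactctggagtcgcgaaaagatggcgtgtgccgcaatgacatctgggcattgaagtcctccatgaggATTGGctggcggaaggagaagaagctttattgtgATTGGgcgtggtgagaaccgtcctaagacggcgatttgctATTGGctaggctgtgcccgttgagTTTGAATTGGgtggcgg
Cdc20 (chr4:118437314-118437543, minus strand): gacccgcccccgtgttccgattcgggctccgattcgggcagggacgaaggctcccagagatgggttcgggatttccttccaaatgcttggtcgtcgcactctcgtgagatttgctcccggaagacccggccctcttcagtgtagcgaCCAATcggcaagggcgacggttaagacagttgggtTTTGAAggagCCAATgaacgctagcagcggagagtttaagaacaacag
Ccnb2 (chr9:70421525-70421754, minus strand): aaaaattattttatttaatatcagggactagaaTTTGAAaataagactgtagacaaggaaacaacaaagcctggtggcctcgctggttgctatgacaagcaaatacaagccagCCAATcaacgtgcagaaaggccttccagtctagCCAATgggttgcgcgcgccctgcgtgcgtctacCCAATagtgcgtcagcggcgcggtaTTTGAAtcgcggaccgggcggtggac
Top2a (chr11:99024160-99024389, minus strand): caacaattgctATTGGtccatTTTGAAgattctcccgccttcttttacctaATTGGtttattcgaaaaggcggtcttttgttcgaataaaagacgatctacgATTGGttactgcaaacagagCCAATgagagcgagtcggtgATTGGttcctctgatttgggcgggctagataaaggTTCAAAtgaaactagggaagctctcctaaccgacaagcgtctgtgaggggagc
Mybl2 (chr2:163054435-163054664, plus strand): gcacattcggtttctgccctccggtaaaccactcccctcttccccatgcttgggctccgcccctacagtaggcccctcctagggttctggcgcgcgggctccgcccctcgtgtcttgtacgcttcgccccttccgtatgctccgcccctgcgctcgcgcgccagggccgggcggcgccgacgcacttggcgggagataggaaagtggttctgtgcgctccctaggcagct
In these stretches the spacing between neighbouring CCAAT boxes and the distance of the last box from the CHR can be read directly, and the CHR of Cdca8 shares a base with a CCAAT box.

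**Figure D2:**
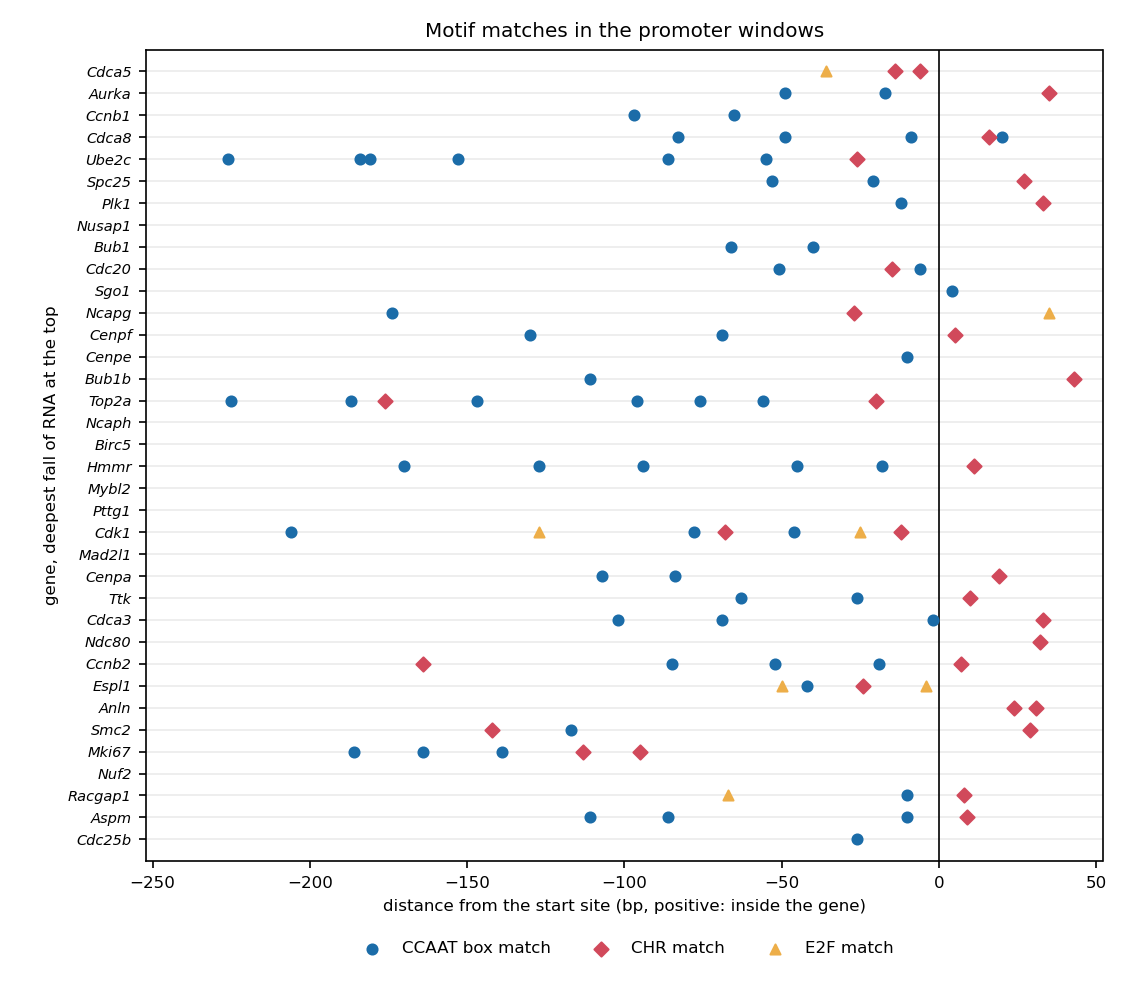
Position of each match to the CHR (red diamonds), the CCAAT box (blue circles) and the E2F site (yellow triangles) in the promoter windows of 36 genes, as distance of the match centre from the start site in bp, with the deepest RNA fall at the top. Of the 31 CHR matches, 25 lie within 50 bp of the start, and most CCAAT boxes lie upstream of them.

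Mitotic entry is set off by cyclin B bound to CDK1, which the CDC25 phosphatases switch on and the kinases PLK1 and AURKA promote. All 9 genes of this role fell, with a median log2 change of -1.49. Aurka, the centrosomal mitotic kinase, went from 49.3 and 50.2 CPM in the E13.5 libraries to 14.3 and 14.7 CPM in the E16.5 libraries (log2 change -1.78, SE 0.0807). Ccnb1, a B-type cyclin, went from 148 and 155 to 48.1 and 41.9 CPM (-1.75, SE 0.0718). Plk1, the polo-like kinase, went from 95.4 and 103 to 31.2 and 29.1 CPM (-1.72, SE 0.0676). In all of these the replicates of a stage lay close together and the stages did not overlap. The smallest fall of the role was that of Cdc25b, from 74.2 and 74.3 to 35.3 and 34.7 CPM (-1.09, SE 0.0580), while Cdc25c, a second phosphatase of the family, fell from 27.9 and 29.7 to 10.9 and 11.1 CPM (-1.39, SE 0.103). Ccna2, Cdk1, Cdca3 and Ccnb2 lay between -1.68 and -1.42.

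The kinetochore, the protein plate on the centromere that holds spindle microtubules, was represented by 8 genes, which all fell with a median of -1.54. Among them is the whole NDC80 complex, which grips the microtubule. Spc24, one of these subunits, fell from 27.1 and 33.0 to 8.05 and 8.56 CPM (log2 change -1.86, SE 0.131), and Spc25, its partner, from 44.4 and 53.3 to 15.5 and 13.8 CPM (-1.74, SE 0.115). Ndc80 itself and Nuf2 changed by -1.43 and -1.34. The E13.5 libraries of Spc24 and Spc25 differed more between replicates than those of most other members, and replicate 2 was the higher one in both. Cenpf, a large protein of the outer kinetochore corona, fell from 137 and 145 to 47.8 and 42.8 CPM (-1.64, SE 0.0669), and Cenpa, the histone H3 variant that marks the centromere, from 96.2 and 106 to 38.3 and 35.3 CPM (-1.46, SE 0.0714). Cenpe, the kinesin of the corona, changed by -1.63. Cenpk, of the inner kinetochore, had the smallest fall, from 9.61 and 9.93 to 3.97 and 4.25 CPM (-1.25, SE 0.171), and the widest error of the 50.

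The spindle checkpoint holds back chromosome separation until every kinetochore is attached. Its 5 genes fell with a median of -1.46. Bub1, a checkpoint kinase, fell from 53.6 and 57.3 to 17.3 and 17.6 CPM (log2 change -1.67, SE 0.0781). Bub1b, which encodes the inhibitor BUBR1, fell from 109 and 106 to 34.0 and 35.6 CPM (-1.62, SE 0.0575), and Mad2l1, which encodes the inhibitor MAD2, from 64.3 and 62.4 to 24.8 and 21.3 CPM (-1.46, SE 0.0850). Ttk, the kinase MPS1, changed by -1.45. Zwilch, a subunit of the RZZ complex that brings dynein to the kinetochore, had the smallest fall of all 50, from 23.6 and 24.9 to 11.6 and 14.2 CPM (-0.91, SE 0.125, adjusted p = 0.000405 in edgeR). Its E16.5 libraries differed more than those of Bub1 or Bub1b, and still lay below both E13.5 libraries.

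Cohesin holds sister chromatids together until separase cuts it, and the chromosomal passenger complex with the kinase AURKB corrects faulty attachments. The 9 genes of this role fell with a median of -1.55. Cdca5, which encodes sororin, the protector of cohesion, had the deepest fall of the 50, from 27.3 and 28.0 to 6.87 and 7.90 CPM (log2 change -1.90, SE 0.118). Cdca8, which encodes the passenger subunit borealin, fell from 82.5 and 81.4 to 25.3 and 23.6 CPM (-1.75, SE 0.0646), and Aurkb from 75.0 and 74.8 to 23.2 and 22.8 CPM (-1.70, SE 0.0627). The scaffold of the same complex, Incenp, had the smallest fall of the role, from 129 and 130 to 51.2 and 51.3 CPM (-1.34, SE 0.0502). The remaining passenger subunit, Birc5 (survivin), changed by -1.55, so that the complex ranged from -1.75 to -1.34. The protectors Sgo1 and Sgo2a changed by -1.65 and -1.41, separase (Espl1) by -1.40 and its inhibitor securin (Pttg1) by -1.50.

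Mitotic exit begins when the anaphase promoting complex, a ubiquitin ligase, marks securin and cyclin B for destruction. Ube2c, its ubiquitin-conjugating enzyme, fell from 123 and 121 to 35.4 and 37.4 CPM (log2 change -1.74, SE 0.0567). Cdc20, the activator that the checkpoint inhibits, fell from 154 and 155 to 53.0 and 44.7 CPM (-1.66, SE 0.0774). Their median of -1.70 was the lowest of the 8 roles, over only 2 genes.

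The spindle and cytokinesis genes, 8 in all, fell with a median of -1.51. Ect2, the exchange factor that activates RhoA at the cleavage furrow, fell from 92.8 and 86.2 to 24.4 and 26.0 CPM (log2 change -1.83, SE 0.0694). Nusap1, a microtubule binder of the spindle, fell from 83.7 and 86.7 to 27.7 and 25.8 CPM (-1.67, SE 0.0649), and Tpx2, the spindle factor that activates AURKA, from 167 and 175 to 60.6 and 55.9 CPM (-1.56, SE 0.0600). Racgap1, the centralspindlin partner of Ect2, fell from 209 and 205 to 86.8 and 84.6 CPM (-1.27, SE 0.0512). The smallest fall was that of Aspm, the spindle pole protein whose human gene is mutated in primary microcephaly, from 129 and 120 to 54.1 and 53.6 CPM (-1.21, SE 0.0575). Hmmr, Prc1 and Anln lay between -1.53 and -1.38.

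Chromosome structure was represented by 7 genes with a median of -1.44. Ncapg, a subunit of condensin, the ring that compacts mitotic chromosomes, fell from 58.6 and 52.4 to 17.9 and 17.6 CPM (log2 change -1.64, SE 0.0854), and Ncaph, another subunit, from 73.5 and 70.4 to 23.7 and 24.8 CPM (-1.57, SE 0.0668). Top2a, the topoisomerase that untangles sister chromatids, fell from 429 and 446 to 152 and 136 CPM (-1.61, SE 0.0614). The condensin ATPases Smc4 and Smc2 changed by -1.44 and -1.38. Mki67, whose protein coats mitotic chromosomes, fell from 426 and 417 to 171 and 158 CPM (-1.36, SE 0.0529). Cdca2, which recruits a phosphatase to chromosomes as mitosis ends, had the smallest fall, from 60.3 and 58.2 to 24.6 and 23.7 CPM (-1.29, SE 0.0692).

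The factors that drive the mitotic wave fell too. Mybl2 (B-MYB) went from 47.2 and 52.4 to 16.7 and 18.3 CPM (log2 change -1.51, SE 0.0918), and Foxm1 from 143 and 143 to 59.4 and 51.8 CPM (-1.36, SE 0.0688). Among the roles with over 2 genes, medians ran only from -1.55 to -1.44, and the ranges of the roles overlapped.

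**Figure D3:**
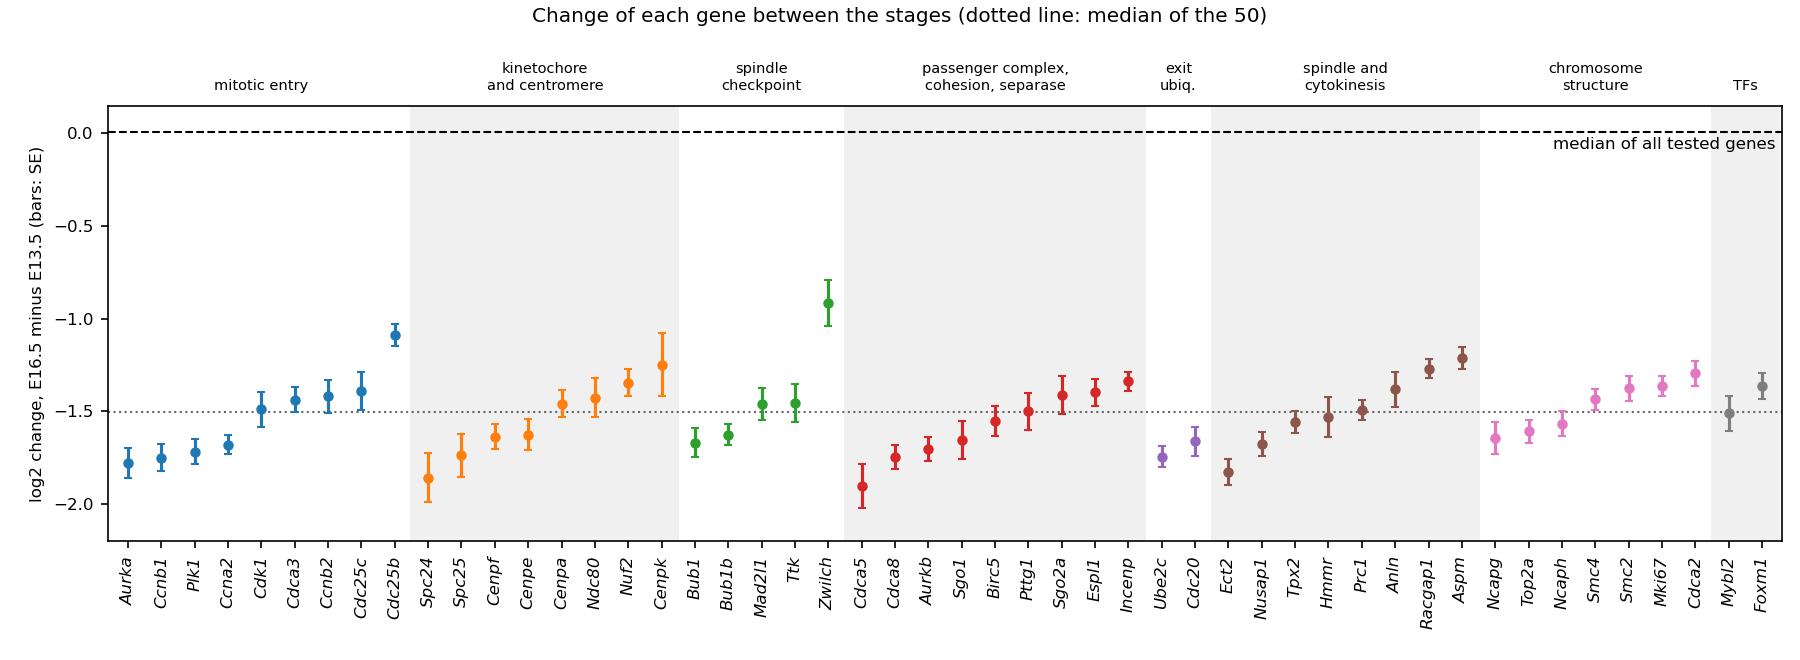
Fitted log2 change (E16.5 minus E13.5) of each of the 50 genes, with bars for 1 standard error and genes ordered by change within their role; the dotted line is the median of the 50 and the dashed line the median of all tested genes. All points lie between -1.90 and -0.91, below the dashed line at 0.01.

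Other genes of the same machinery gave list medians closer to 0, in lists that, like the members, were chosen with earlier results of these data known. Of 32 further kinetochore and centromere genes, 29 fell, none rose and 3 were not called, with a median log2 change of -1.05. Nsl1, of the MIS12 complex, fell from 27.2 and 27.5 to 7.93 and 7.57 CPM (-1.82), and Spdl1, a dynein adaptor at the kinetochore, from 19.4 and 18.6 to 6.09 and 5.18 CPM (-1.75). The 3 without a call were Cenpx (-0.22), Cenpb (-0.09) and Cenpt (0.01). The RZZ partners of Zwilch, Kntc1 and Zw10, changed by -1.51 and -0.43.

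The anaphase promoting complex, its regulators and E2 enzymes counted 16 lower and 0 higher of 17, with a median of -0.37. The 2 largest falls were those of Fbxo5, its inhibitor EMI1, at -1.37, and Ube2s, at -0.79, while Anapc5 was not called (0.07). Of 16 cohesin and further condensin genes, 14 fell, and Mau2, a cohesin loader subunit, rose (0.23). Their median was -0.60, with Esco2, an acetyltransferase for cohesin, at -1.56 and Ncapd2 at -1.18. Of 12 subunits of the DREAM complex, 11 fell with a median of -0.75, led by Rbl1 (p107) at -1.11 and Tfdp2 at -0.97, and Rbl2 (p130) was not called at 0.06. Genes of cell cycle exit fell in 8 of 12 cases with a median of -0.53, among them Gadd45g from 81.1 and 81.6 to 24.0 and 24.3 CPM (-1.75) and Btg2 from 89.1 and 87.3 to 32.5 and 30.2 CPM (-1.49). The 1 that rose was Cdkn1a (p21), from 7.93 and 6.84 to 11.2 and 10.3 CPM (0.54). All of these calls come from the same edgeR fit and threshold, beside the 29.2% lower and 28.4% higher of all tested genes.

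Markers of the cell types in the tissue moved at the same time. Of 8 radial glia markers, 6 fell and 2 rose (median -1.11), and their sum went from 1818 and 1891 to 1281 and 1148 CPM. Nes fell by 1.54, Hes5 by 1.46, Pax6 by 1.27 and Vim by 1.27 on the log2 scale, while Slc1a3 and Fabp7, which astrocyte precursors also express, rose by 1.40 and 0.29. All 5 intermediate progenitor markers fell (median -1.30), with sums of 763 and 660 CPM before and 381 and 320 CPM after. Of 8 neuron markers, 2 fell, 4 rose and 2 were not called (median 0.12), with sums of 5008 and 4993 CPM before and 5256 and 5345 CPM after.

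Markers of other cell types rose in most cases. All 8 microglia markers were higher, with sums of 49.5 and 48.7 against 108 and 108 CPM, as were all 8 endothelial markers, with 114 and 125 against 381 and 397 CPM. Of 7 tested erythroid markers, 5 rose, with sums of 1575 and 1478 against 2609 and 3534 CPM. Of 5 oligodendrocyte lineage markers, 4 rose and Olig2 fell, with sums of 68.3 and 72.7 against 158 and 148 CPM. Choroid plexus markers gave 1 rise and 1 fall among 4 tested, with sums of 20.4 and 39.5 against 20.0 and 40.3 CPM. No tested marker was at 0 in any library, and Epb42 and Kl had too few counts to be tested. The part of these shifts in the fall of the mitotic genes was not tested.

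Peaks of H3K9ac and H3K9cr were still called at all 50 genes at E16.5. Both marks sit on nucleosomes beside active start sites, and each had a peak within 2000 bp of every one of the 50 spans in every library, where 91.5% (H3K9ac) and 91.7% (H3K9cr) of 14917 tested genes with a position had one. No gene of the 50 was without a peak of either mark at E16.5 after having one in both E13.5 libraries (0.067% and 0.0603% of genes), and none had its first peak at E16.5 (1.01% and 0.798% of genes). At the start site itself, H3K9ac covered 33 and 32 of 36 genes with a single RefSeq start in the E13.5 libraries, against 81.6% and 79.9% of 9268 genes with a single start, and 33 and 34 in the E16.5 libraries, against 80.2% and 81.5%. H3K9cr covered 34 and 31 at E13.5, against 83.4% and 80.2%, and 35 and 35 at E16.5, against 82.6% and 82.9%. In both marks 31 of the 36 starts (86.1%) were covered in all 4 libraries, against 74.8% of the 9268 genes for H3K9ac and 76.5% for H3K9cr. For H3K9ac, the median over the 50 genes of the highest fold enrichment was 36.1 and 35.9 at E13.5, then 26.4 and 26.0. For H3K9cr it was 47.2 and 46.8, then 30.2 and 28.0. These values come from separate lists that were not scaled to each other, and their change was not tested.

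Single regions of these marks came and went at few genes. A region was called lost when both E13.5 libraries and no E16.5 library had a peak in it, and gained in the reverse case, after peaks of the 4 libraries were merged where they overlapped. Lost H3K9ac regions were found at Espl1 and Mki67, 2 of 50 genes against 2.54% of all genes, and a lost H3K9cr region at Espl1 alone, against 1.02%. Gained H3K9ac regions were found at Aspm and Nuf2 (17.7% of genes) and gained H3K9cr regions at Bub1b, Cenpf and Nuf2 (14.4%). Without 1 library these counts moved. Lost H3K9ac regions were then at 5 genes without either E13.5 replicate, against 6.61% of all genes without replicate 1 and 8.4% without replicate 2, and lost H3K9cr regions at 2 genes, against 2.98% and 5.66%. Gained H3K9ac regions were at 5 genes without E16.5 replicate 1 and 7 without replicate 2, against 27.2% and 25.0%, and gained H3K9cr regions at 5 genes without E16.5 replicate 1, against 22.4%. With all 4 libraries, none of the lost or gained regions covered a RefSeq start site. That of Espl1, separase, lay past the end of the gene, 28961 bp from the start (H3K9ac, chr15:102325089-102325419, fold enrichment 8.20 and 9.33) and 29028 bp from it (H3K9cr, chr15:102325179-102325464, fold enrichment 5.99 and 9.66). Both Espl1 regions also lie within 2000 bp of the neighbouring gene Pfdn5 and cannot be given to one of the pair. The intronic or exonic place of the inner regions was not analysed here.

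H3K18la peaks were called at fewer of the 50 genes in each E16.5 library than in either E13.5 library. At E13.5, 48 and 49 of the 50 had an H3K18la peak within 2000 bp, against 87.5% and 88.4% of all genes, and at E16.5 this held for 35 and 40, against 82.6% and 87.3%. Peaks in the 50 windows numbered 73 and 73 before and 49 and 61 after, and covered 72350 and 75155 bp before and 33325 and 55159 bp after. With 2 libraries against 2, an exact two-sided permutation test of such a number cannot go below p = 0.333, so these are descriptions. A peak in every library was found at 33 of the 50 genes, against 79.0% of all genes and 70.1% of 588 other genes that fell more than 2-fold. Without the E16.5 library of shorter peaks it was 39, against 83.0% of all genes and 76.4% of the other genes that fell. In the gene spans alone, with no 2000 bp on either side, it was 18, against 71.9%.

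Gene by gene, 47 of the 50 had an H3K18la peak in both E13.5 libraries. Of these 47, 33 had one in both E16.5 libraries, 7 in 1 of them and 7 in neither. The 7 with no peak left anywhere in the window were Plk1, Cdc25c, Aurkb, Pttg1, Nusap1, Mki67 and Mybl2, while 2.0% of all genes lost every peak in this way, and 8.16% of 588 other genes that fell more than 2-fold. Without E16.5 replicate 1 it was 8 genes, Tpx2 in addition, against 2.72% of all genes, and 59 of the 588 other genes that fell, and without E16.5 replicate 2 it was 13, against 5.98% and 14.5%. In the gene spans alone it was also 13, against 2.55% of all genes. This count was added after the peak lists had been seen. By role, the 7 came from mitotic entry (2 of 9), the passenger and cohesion genes (2 of 9), the spindle genes (1 of 8), chromosome structure (1 of 7) and the transcription factors (1 of 2), and none came from the 8 kinetochore, 5 checkpoint and 2 mitotic exit genes. Tpx2, which joins without E16.5 replicate 1, is a spindle gene. This split by role rests on E16.5 replicate 2. Without that library Nuf2 of the kinetochore, Ube2c of mitotic exit, Cdca8, Sgo2a, Top2a and Ncapg were also without a peak, and none of the 5 checkpoint genes was among the 13. No gene went from no peak to a peak in both E16.5 libraries, as 0.67% of all genes did.

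Of the 7 with a peak in 1 E16.5 library, Nuf2, Cdca8, Sgo2a, Ube2c, Top2a and Ncapg had it in replicate 2 alone, the library with the longer peaks, and Tpx2 in replicate 1. Bub1, Bub1b and Spc25 made up the remaining 3 genes. Bub1 and Bub1b had no H3K18la peak in E13.5 replicate 1, and Spc25 none in E13.5 replicate 2, so no change can be read for them.

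**Figure D4:**
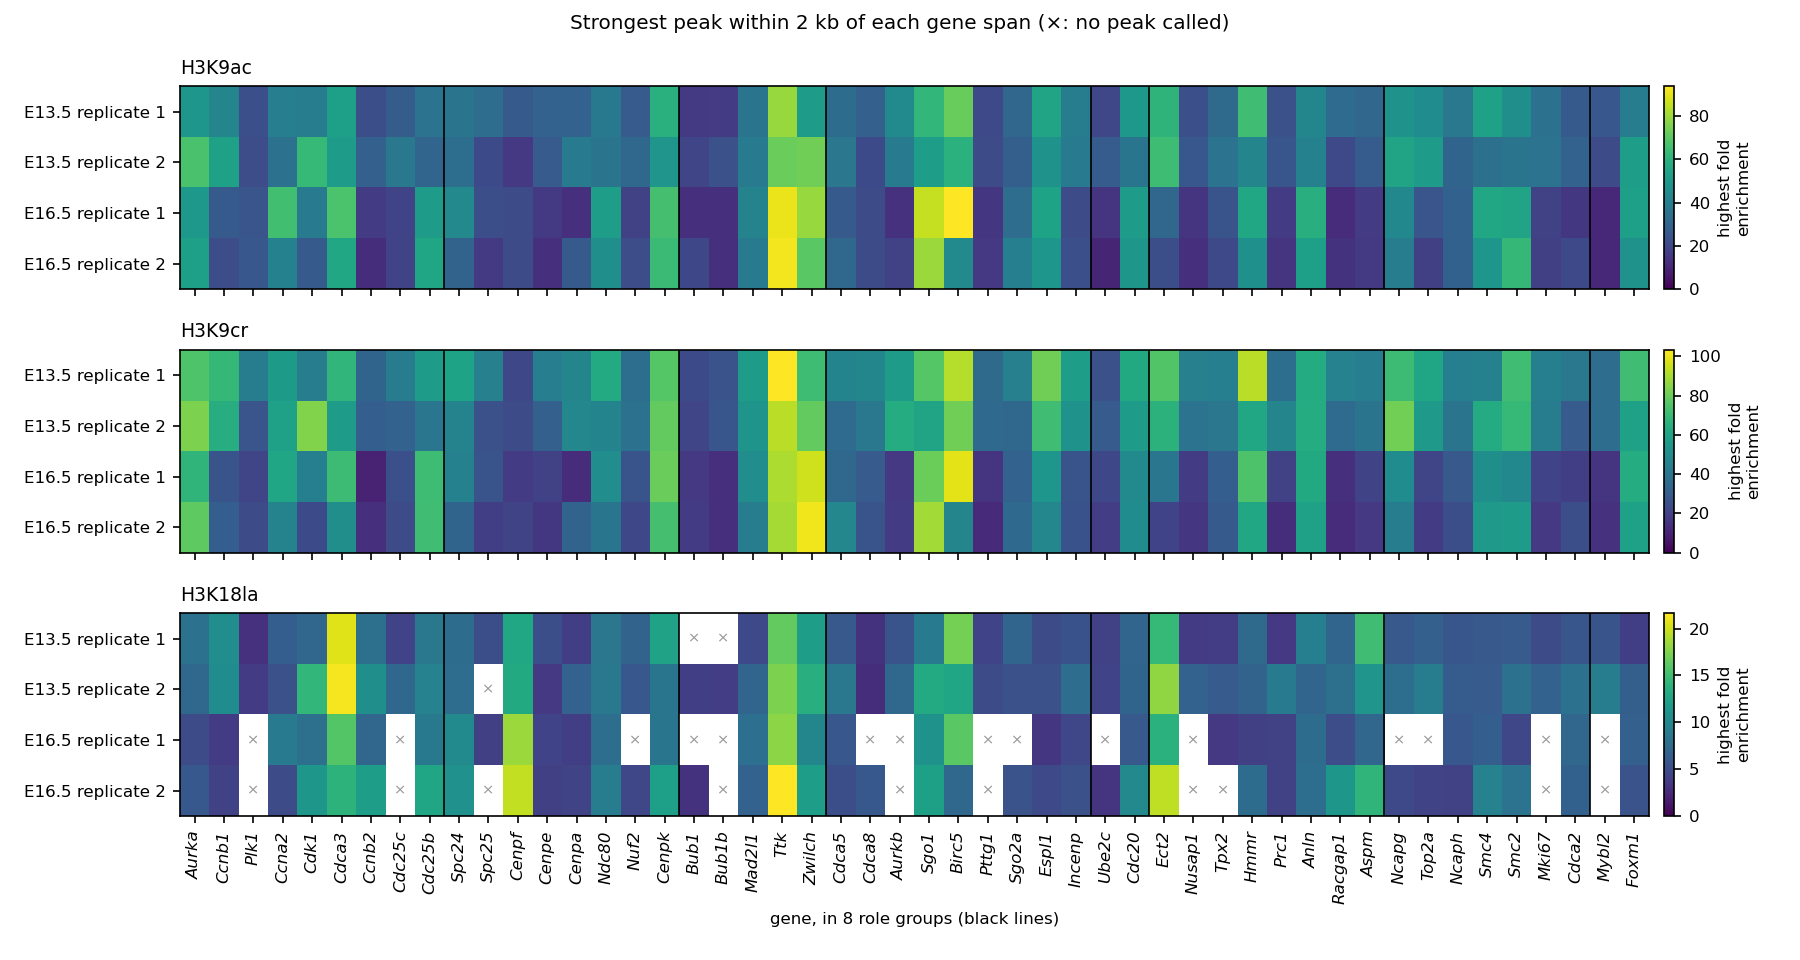
Highest fold enrichment of a peak within 2000 bp of each gene span, for H3K9ac, H3K9cr and H3K18la (panels), the 4 libraries (rows) and the 50 genes (columns, ordered as in the RNA plots), with crosses where no peak was called and a colour scale of its own for each mark. Crosses appear only for H3K18la, at 2 and 1 genes before and at 15 and 10 genes after; colours were not compared between libraries.

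Lost H3K18la regions, called region by region, lay at 9 of the 50 genes, against 16.0% of all genes, and 24.3% of the other genes that fell more than 2-fold. They were 11 regions with a median length of 667 bp, at Aurkb, Cdc25c, Cenpa, Mki67, Mybl2, Nusap1, Plk1, Racgap1 and Tpx2. Without E16.5 replicate 1 it was 11 genes, against 18.4% of all genes, without E16.5 replicate 2 it was 21, against 26.8%, and without E13.5 replicate 1 it was 15, against 27.1%. In the other genes that fell more than 2-fold, the share was 27.9% without E16.5 replicate 1 and 37.2% without E16.5 replicate 2. Where a region counted as lost once less than 50% of it was covered in each E16.5 library, it was 18 genes, against 26.5% of all genes. Gained regions lay at 3 genes, Aurka, Cenpf and Ect2, against 9.52% of all genes, and without E16.5 replicate 1 at 6, against 20.9%. The shares of the 50 genes with a lost region, with and without E16.5 replicate 1, lie near those of all genes.

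The region at Mybl2 was the longest of the 11, at 1700 bp (chr2:163053997-163055696), and covered the start printed above, which the peak of E13.5 replicate 2 alone reached. Its fold enrichment, as the authors' peak caller gave it, was 5.62 and 9.17 in the E13.5 libraries, and no peak was called in either E16.5 library. At Mki67, the region chr7:135715564-135716419 covered the start, in replicate 2 alone, with 4.97 and 6.79, and a second one, chr7:135716765-135717051, lay upstream with 2.70 and 4.13. Both Mki67 regions were absent from both E16.5 lists. At Aurkb, the region chr11:69045207-69046421 ran across a gene end with 5.60 and 7.25.

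Nusap1 had a lost region across its start, chr2:119618054-119618449, with 3.58 and 6.08, and another behind it, chr2:119618757-119619299, with 3.74 and 6.81. Both lie within 2000 bp of the neighbouring gene Oip5 as well, a centromere gene that itself fell from 10.9 and 9.82 to 5.42 and 3.87 CPM (log2 change -1.15), and cannot be given to one of the pair. At Plk1 the region chr7:122159472-122160138 was centred 370 bp past the start with 3.07 and 3.74, among the weaker peaks. Cdc25c had a region of 902 bp across a gene end with 4.37 and 7.25.

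At the genes of the remaining lost regions, another peak was still called in at least 1 E16.5 library. Cenpa lost a region centred 474 bp past its start, chr5:30666947-30667774, with 2.80 and 6.79, and kept a peak in both E16.5 libraries. That of Tpx2, chr2:152847449-152847733, lay outside the span, which begins at 152847964, with 3.54 and 3.98, and a peak stayed in E16.5 replicate 1 alone. The lost region of Racgap1, chr15:99619387-99619858, lay 32034 bp from the start, beyond the far end of the gene, with 4.37 and 3.02. Pttg1 is in neither list of regions because its 2 E13.5 peaks did not overlap, with 4.37 in one library and 4.91 at the start site in the other. The gained regions of Ect2, chr3:27109121-27110203, and Cenpf, chr1:189661636-189662026, lay inside the genes, centred 44216 and 26255 bp past a RefSeq start, with 3.46 and 4.97 and with 5.88 and 3.44. The gained region of Aurka, chr2:172355169-172355926, lay outside the span with 3.01 and 4.39. It also overlaps the neighbouring gene Fam210b, which rose (log2 change 0.68), and cannot be given to one of the pair.

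Where no H3K18la peak was left, the other marks were still called. Mki67 had H3K9ac peaks of 35.0 and 35.7 fold enrichment, then 18.5 and 17.8, and H3K9cr peaks of 44.6 and 43.7, then 20.9 and 17.3. Mybl2 had H3K9ac peaks of 25.4 and 21.5, then 10.5 and 11.0. Plk1 had H3K9ac peaks of 23.1 and 22.0, then 24.7 and 25.5. Fold enrichments of separate lists were not scaled to each other, so they show presence, not change.

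Several of the strongest H3K18la peaks stayed. Ttk had one in a region over its start with 16.4 and 17.3, then 17.9 and 21.6, Cdca3 with 20.6 and 21.3, then 15.9 and 14.0, and Ect2 with 14.5 and 18.1, then 13.8 and 19.5. These regions were merged over the libraries. The start itself was inside a peak in only 1 E16.5 library for Ttk and in neither for Cdca3. The log2 changes of RNA were -1.45 for Ttk, -1.44 for Cdca3 and -1.83 for Ect2. Over all 50, the median RNA change was -1.51 in the 7 genes with no H3K18la peak left and -1.49 in the other 43, and -1.46 in the 33 with a peak in every library against -1.62 in the other 17. Without E16.5 replicate 1 it was -1.53 in 8 genes with no peak left and -1.49 in the other 42, and -1.46 in 39 genes with a peak in every library against -1.62 in the other 11. Without E16.5 replicate 2 it was -1.61 in 13 genes with no peak left and -1.49 in the other 37. For a peak in every library it was then -1.46 in 34 genes against -1.63 in the other 16. These medians describe the genes, and the differences were not tested.

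Fewer start sites lay inside an H3K18la peak in each E16.5 library than in either E13.5 library. It covered the start of 26 and 23 of the 36 genes with a single RefSeq start at E13.5, against 53.5% and 55.5% of 9268 genes, and of 5 and 17 at E16.5, against 40.9% and 58.2%. In the other genes that fell more than 2-fold, 23.9% and 43.6% of starts were covered at E16.5. A peak lay within 1000 bp of the start in 34 and 35 genes at E13.5 (79.8% and 82.0% of genes) and in 22 and 29 at E16.5 (73.7% and 80.3%). The lowest values are those of replicate 1, the library of shorter peaks, and in replicate 2 alone 17 of 36 is 47.2%, against 72.2% and 63.9% in the E13.5 libraries.

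Of the 36 starts, 5 were inside an H3K18la peak in every library: Anln, Cdc25b, Cdk1, Mad2l1 and Ndc80. These are 13.9%, against 33.9% of the 9268 genes and 20.3% of the 360 other genes that fell. The count rests on E16.5 replicate 1. The starts of Aurka, Birc5, Ccnb2, Hmmr, Ncaph, Nuf2, Smc2, Top2a and Ttk were covered in both E13.5 libraries and in E16.5 replicate 2, so without replicate 1 it was 14 of 36 (38.9%), against 43.6% and 36.1%. The starts of Cdc20, Cdca3, Cdca5, Cenpe, Nusap1 and Sgo1 (whose RefSeq start lies inside its span) were covered in both E13.5 libraries and in neither E16.5 library. These 6 are 16.7% of the 36, against 3.04% of the 9268 genes and 8.89% of the other genes that fell, and without E16.5 replicate 1 the same 6 starts were found, against 3.86% and 10.8%. The count of 6 was larger without each of the other libraries. It was 9 without E13.5 replicate 1, against 5.92% of the 9268 genes, 10 without E13.5 replicate 2, against 5.27%, and 15 without E16.5 replicate 2, against 12.7%. No start showed the reverse, as 1.62% of the 9268 genes did, and without E16.5 replicate 1 only that of Racgap1 did, against 6.1%. No library had a peak over 6 starts (16.7%), against 31.7% of the 9268 genes, and without E16.5 replicate 1 it was again 6, against 32.3%. Without E13.5 replicate 1 it was 10, against 34.0%. Cdc20, Cdca3, Cdca5, Cenpe and Sgo1 still had an H3K18la peak within 2000 bp of the span in both E16.5 libraries, and Nusap1 had none. At Cdca5, printed above, the E13.5 peaks over the start had 6.03 and 8.66 fold enrichment, and its E16.5 peaks, with 5.88 and 5.17, lay in the same merged region without reaching the start. These start site counts were also added after the peak lists had been seen and carry no test.

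**Figure D5:**
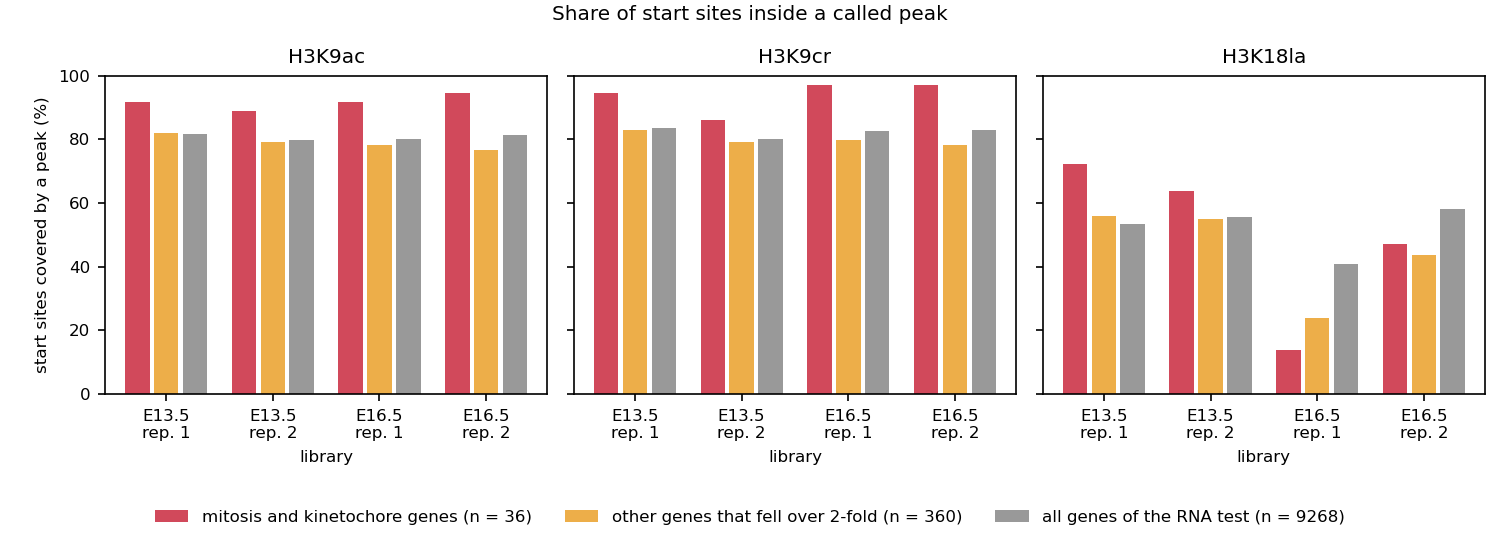
Share (%) of start sites that lie inside a called peak, by library, for H3K9ac, H3K9cr and H3K18la (panels), in 36 of the mitosis and kinetochore genes (red), 360 other genes that fell more than 2-fold (yellow) and 9268 tested genes (grey), all with a single RefSeq start. The red bars stay between 86.1% and 97.2% for H3K9ac and H3K9cr, and for H3K18la they go from 72.2% and 63.9% to 13.9% and 47.2%.

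Open chromatin was mapped at E13.5 alone. An ATAC peak within 2000 bp was called in both libraries at 44 of the 50 genes, against 73.5% of all genes, and Anln, Aurkb, Cdca5, Ncaph, Nuf2 and Zwilch lacked it in at least 1. The start was inside an ATAC peak in 25 and 25 of the 36 genes, against 57.7% and 57.1% of 9268 genes. Cdca5 and Aurkb, with no ATAC peak in either library, had H3K9ac peaks of 33.0 and 37.3 and of 44.6 and 38.9 fold enrichment at the same stage. The windows of 21 of the 50 genes also reach another protein-coding gene, and their peaks cannot be assigned to one of them. The spans had a median of 26931 bp, against 23541 bp for all genes with a position.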

How the data were processed

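Expected counts per gene and library were made by the authors, whose processing notes name Salmon 1.1.0 and GRCm38. After rounding, genes kept by filterByExpr were compared between stages (E16.5 minus E13.5) by the quasi-likelihood test of edgeR 4.0.16 in R 4.3.3, with TMM factors and 2 residual degrees of freedom, with Benjamini-Hochberg adjustment over 16237 genes and a threshold of 0.05. The fit moderates each gene's spread by the spread over all genes. Its p-values and standard errors therefore do not rest on a gene's own libraries alone. A standard error is the log2 change divided by the square root of F. A second table deposited by the authors gives log2 changes and a p-value and adjusted p-value per gene from DESeq2 1.26.0, per the submitters' processing notes.

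Peaks come from 1 list per library, for which the submitters' processing notes name GRCm38, Bowtie2 2.4.1 and MACS2 2.2.7.1. Each deposited peak has a pileup signal, -log10 p and q values and a fold enrichment ratio, per the file headers. Lists were read in Python 3.11.15. Gene positions and promoters are RefSeq GRCm38.p6. Neither the read depth behind the lists nor any use of inputs is stated, and the 4 input libraries were not analysed here.

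Each gene's CPM was given for the 3 deepest falls of a role, for the smallest fall where the role has over 4 genes, and for genes with a lost or gained H3K18la region. Of the other machinery lists the 2 largest falls and rises were named, and further names were chosen after their values were seen. The members, roles and lists were chosen with earlier results of these data known. The edgeR steps and the peak calls were tested on simulated data. Alternatives covered scaling, filter, DESeq2 1.42.0, a replicate block, windows, peak thresholds and leaving out each library.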

Additional observations from a re-analysis of the deposited data

How the results depend on the processing

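All 50 genes were lower and 0 higher under every scaling, filter and test tried and without each library. Their median log2 change was -1.41 under upper-quartile scaling, where the median of all genes was 0.10, and ran from -1.55 to -1.50 when 1 library was left out. With a replicate block it was -1.51. The replicate numbers are not stated to pair libraries, and replicate differences correlated with r = 0.125 over genes.

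Counts of lost or gained regions are small and moved with the settings. With gene spans alone, lost regions were found at 1 gene for H3K9ac and 0 for H3K9cr, an H3K18la peak in every library at 18 (71.9% of all genes), and no H3K18la peak left at 13 (2.55%). With -log10 q of at least 5, it was 1 gene with a lost H3K9ac and 0 with a gained H3K18la region. With equal numbers of peaks per library, it was 1 gene each for lost H3K9ac, gained H3K9ac and gained H3K9cr regions. Where a region counted as lost once less than 50% of it was covered in each E16.5 library, H3K18la was lost at 18 genes (26.5% of all genes). Leaving out 1 library gave 2 to 5 genes with lost and 2 to 7 with gained H3K9ac regions, 1 to 2 and 3 to 5 for H3K9cr, and 11 to 21 and 3 to 6 for H3K18la. It gave 33 to 39 genes with an H3K18la peak in every library and 7 to 13 with none left. Of 36 start sites it gave 5 to 14 covered by H3K18la in every library, 6 to 15 at E13.5 alone, 0 to 1 at E16.5 alone and 6 to 10 in no library. The cause of these moves was not tested, and fewer libraries make each call easier to reach.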
